A study of Caenorhabditis elegans with 12 samples.

Results

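The pharynx fate regulators described here are 5 genes of Caenorhabditis elegans, pha-4, tbx-2, ceh-22, peb-1 and pha-1. They were taken by symbol from the deposited table, and all 5 were found among its 25122 genes. No measured value entered that step, but the regulators and the gene lists used below were chosen with earlier results of these data known. The pharynx is the feeding organ of the worm, a tube of muscle, gland, epithelial and nerve cells that forms in the embryo. PHA-4, a FoxA transcription factor, gives cells of every type in the organ their pharyngeal identity, and factors such as TBX-2, CEH-22 and PEB-1 act with it or after it in the pharyngeal muscle. PHA-1 was long taken for a regulator of pharynx formation and is now known as the antidote to SUP-35, a toxin that the mother supplies to her eggs.

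RNA was sequenced from eggs of 3 genotypes with 4 libraries each: the triple mutant daf-16;daf-2;bcl-11, the double mutant daf-2;bcl-11, and daf-2. Every egg, controls included, carried the e1370 allele of daf-2, which weakens the insulin/IGF receptor. The bcl-11 allele was bon125, a frameshift that the study treats as hypomorphic in a gene related to mammalian BCL11A and BCL11B. The daf-16 allele was mu86, a deletion in the FOXO gene on which reduced insulin/IGF signaling acts. The animals were grown at 20 °C on OP50-1 bacteria, and the eggs were released with bleach and held at 27 °C for 2 h, so no library shows the unheated state. Libraries carry the numbers 1 to 4 within a genotype, which the labels equate with batches, but the labels do not say whether the numbers are separate cultures, and p-values then measure only the spread between these libraries.

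By their labels, the comparisons ask how a bcl-11 mutation changes the RNA of warmed daf-2 eggs, and whether loss of daf-16 alters that change. The authors deposited rlog values, a log2 measure of normalized counts that shrinks weakly expressed genes to their average and so makes their changes appear smaller. Read numbers cannot be had from it, and sequencing depth is unknown. A gene was called higher or lower at an adjusted p-value below 0.05 (limma, Benjamini-Hochberg over all 25122 genes) together with a fold change above 1.5. By this rule 22.5% of genes were called in the triple mutant against daf-2 (6.38% higher and 16.2% lower), and 22% in the libraries labelled double mutant (7% higher and 15% lower). Between the 2 bcl-11 genotypes 0.0119% of genes were called. Each bcl-11 genotype was compared with the same 4 daf-2 libraries, so likeness between those results is in part built in.

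daf-16 RNA went against a label. It had rlog values from 9.58 to 9.90 in triple mutant eggs, from 9.46 to 9.61 in the libraries labelled double mutant and from 11.98 to 12.32 in daf-2 eggs, although the double mutant should carry an intact daf-16. These 4 libraries are named by their label throughout, and every direction given for them rests on it. Since daf-16 RNA was low in both bcl-11 genotypes, effects of bcl-11 and of daf-16 cannot be told apart in the comparisons with daf-2. For the same reason the comparison between the bcl-11 genotypes cannot show what loss of daf-16 does. The eggs were of mixed age: genes of maternal RNA, of the early zygote and of the late embryo were all present, the lowest mean among the maternal and late genes being 8.60 rlog for egg-2 in daf-2 eggs. For a stage score, the mean rlog of 11 genes of the late embryo was subtracted from that of 23 genes of the maternal and early zygotic lists, and a higher score means more early RNA. It was -3.97, -4.95, -5.18 and -2.24 in triple mutant libraries 1 to 4, from -3.54 to -2.83 in the libraries labelled double mutant and from -5.88 to -4.11 in daf-2 libraries. The libraries labelled double mutant thus lay above every daf-2 library, and library 4 of the triple mutant lay above all others.

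ceh-22 and peb-1 fell in both bcl-11 genotypes against daf-2, whereas pha-4, tbx-2 and pha-1 were not called in any comparison. ceh-22 was 1.75-fold lower in the triple mutant and 1.78-fold lower in the libraries labelled double mutant. peb-1 was 1.69-fold and 2.15-fold lower in the same order. That is 2 of the 5 regulators in each comparison, both among the lower genes, where 16.2% and 15% of all genes were called. An unadjusted limma p below 0.05 was reached by 40.5% of all genes in the triple mutant and 39.5% in the libraries labelled double mutant, and by 4 and 2 of the 5 regulators, pha-4 and pha-1 being the others in the triple mutant. In RNA from whole eggs, fewer cells of a type and less RNA per cell cannot be told apart.

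**Figure D1:**
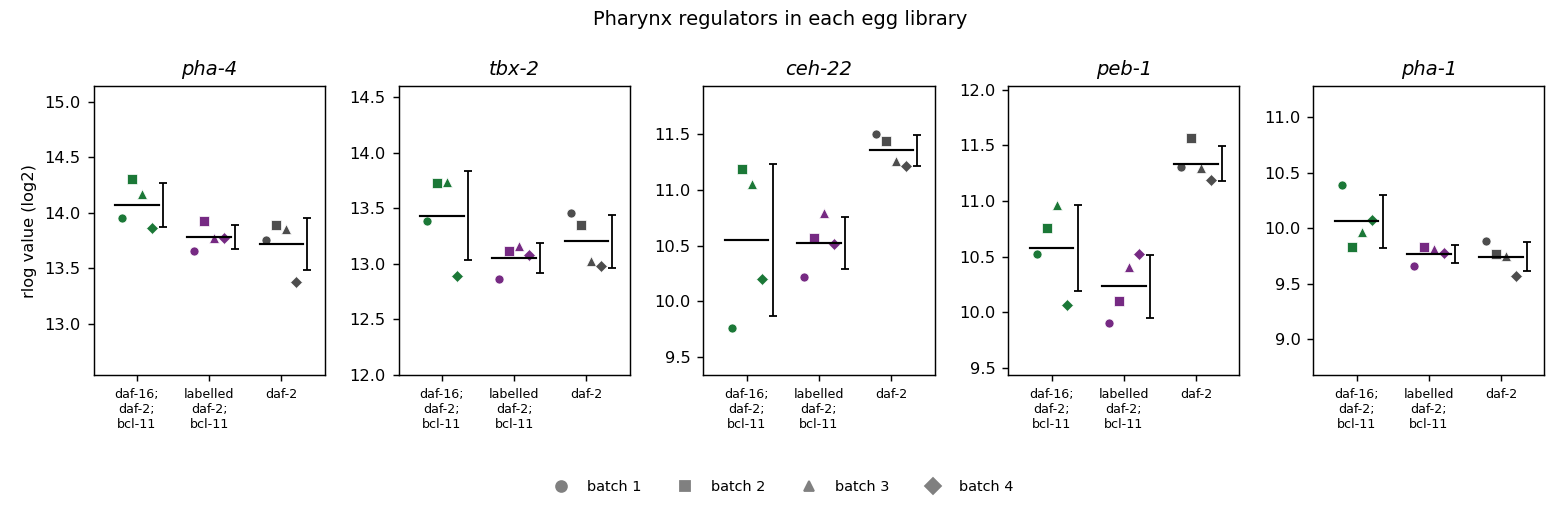
rlog values (log2 scale) of the 5 regulators in each of the 12 egg libraries, with the genotype on the x axis (triple mutant daf-16;daf-2;bcl-11, libraries labelled double mutant daf-2;bcl-11, daf-2), the batch as the marker shape, a bar for the mean and a bracket for ± 1 SD (n = 4). All panels span the same number of log2 units. In the ceh-22 and peb-1 panels every library of the bcl-11 genotypes lies below every daf-2 library, and in the other panels the genotypes overlap.

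pha-4 (WBGene00004013, chromosome V of WBcel235, 20753052 to 20760317, plus strand) encodes the FoxA factor that specifies the organ. Its rlog values were 13.96, 14.30, 14.17 and 13.87 in triple mutant libraries 1 to 4, 13.66, 13.93, 13.78 and 13.78 in those labelled double mutant, and 13.76, 13.89, 13.86 and 13.38 in daf-2 libraries. The genotypes overlapped, and the lowest value of all was that of daf-2 library 4. Against daf-2 the log2 fold change in the triple mutant was 0.35 (SE 0.13, 95% interval 0.07 to 0.64), with an adjusted p of 0.0543 in limma, and the value was higher in 4 of 4 batches. The median log2 fold change over the 7078 genes with a mean of at least 10 rlog was 0.33 there. In the libraries labelled double mutant the log2 fold change of pha-4 was 0.07 (95% interval -0.22 to 0.35, limma adjusted p = 0.752), and it turned to -0.12 after quantile normalization. The lower bounds of both intervals lie above a 1.5-fold loss of pha-4 RNA on the deposited scale.

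tbx-2 (WBGene00006543, chromosome III, 5130923 to 5136296, minus strand) encodes a T-box repressor that anterior pharyngeal muscle needs. Its rlog values were 13.38, 13.73, 13.74 and 12.89 in triple mutant libraries 1 to 4, 12.86, 13.12, 13.16 and 13.08 in those labelled double mutant, and 13.46, 13.35, 13.02 and 12.98 in daf-2 libraries. No genotype stood apart, and library 4 of the triple mutant, the one with the highest stage score, lay well under the other 3 of its genotype. The log2 fold change against daf-2 was 0.23 (SE 0.18, limma adjusted p = 0.355) in the triple mutant, turning to -0.05 after quantile normalization. In the libraries labelled double mutant it was -0.15 (SE 0.18, limma adjusted p = 0.578), turning to 0.28 when each library was centred on its median.

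ceh-22 (WBGene00000445, chromosome V, 10671918 to 10675769, plus strand) encodes a homeodomain factor of the NK-2 class, which also holds heart factors of vertebrates, that acts in pharyngeal muscle and switches on the myosin gene myo-2. Its rlog values were 9.76, 11.19, 11.05 and 10.20 in triple mutant libraries 1 to 4, 10.22, 10.57, 10.79 and 10.51 in those labelled double mutant, and 11.51, 11.44, 11.26 and 11.21 in daf-2 libraries. Every library of both bcl-11 genotypes lay below every daf-2 library, although libraries 2 and 3 of the triple mutant came close to the lowest of them. The SD of ceh-22 was 0.68 in the triple mutant, where it was the largest of the 5 genes, 0.24 in the libraries labelled double mutant and 0.14 in daf-2. The log2 fold change against daf-2 was -0.81 in the triple mutant (SE 0.26, 95% interval -1.36 to -0.25, adjusted p = 0.0277, limma with Benjamini-Hochberg adjustment). It was -0.83 in the libraries labelled double mutant (SE 0.26, 95% interval -1.39 to -0.28, adjusted p = 0.0255, limma with Benjamini-Hochberg adjustment). Within batches 1 to 4 the difference from daf-2 was -1.75, -0.26, -0.20 and -1.01 in the triple mutant and -1.29, -0.87, -0.47 and -0.70 in the libraries labelled double mutant. It was below 0 in 4 of 4 batches for both genotypes, but its size in the triple mutant came mostly from libraries 1 and 4.

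The adjusted p of ceh-22 was close to the threshold, and its call was lost when certain single libraries were left out. In the triple mutant it was lost without library 1 (log2 fold change -0.54, limma adjusted p = 0.0866) or library 4 (-0.69, adjusted p = 0.0729) of that genotype, and without daf-2 library 1 (-0.75, adjusted p = 0.0704) or 2 (-0.78, adjusted p = 0.0644). In the libraries labelled double mutant it was lost without their library 1 (-0.73, limma adjusted p = 0.0836), 2 (-0.85, adjusted p = 0.055) or 4 (-0.83, adjusted p = 0.0569), and without daf-2 library 1 (-0.78, adjusted p = 0.0645) or 2 (-0.80, adjusted p = 0.0617), so that the log2 fold change itself moved little there. The log2 fold change stayed below 0 in all 23 alternatives for both genotypes, between -1.02 and -0.27 in the triple mutant and between -1.02 and -0.32 in the libraries labelled double mutant.

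peb-1 (WBGene00003968, chromosome X, 2211051 to 2218988, plus strand) encodes a DNA-binding protein that binds the myo-2 enhancer. Its rlog values were 10.53, 10.76, 10.97 and 10.06 in triple mutant libraries 1 to 4, 9.90, 10.10, 10.40 and 10.52 in those labelled double mutant, and 11.31, 11.56, 11.29 and 11.19 in daf-2 libraries. The bcl-11 genotypes were again below daf-2 without overlap and overlapped each other. The log2 fold change against daf-2 was -0.76 in the triple mutant (SE 0.19, 95% interval -1.17 to -0.34, adjusted p = 0.00751, limma with Benjamini-Hochberg adjustment). It was -1.105 in the libraries labelled double mutant (SE 0.19, 95% interval -1.52 to -0.69, adjusted p = 0.000804, limma with Benjamini-Hochberg adjustment). Within batches 1 to 4 the difference was -0.78, -0.81, -0.32 and -1.12 in the triple mutant, and -1.40, -1.46, -0.89 and -0.67 in the libraries labelled double mutant. Leaving out any of the 12 libraries left the log2 fold change between -0.89 and -0.59 and between -1.20 and -0.995 in the same order, and peb-1 stayed called each time. In the triple mutant the call ended with median centring (-0.22, limma adjusted p = 0.342) and with the stage score as a covariate (-0.49, under the fold change limit).

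Noncoding RNA genes overlap some of these loci, and the libraries do not keep the strand. peb-1 is overlapped by 11 such genes, 6 of them on the opposite strand, and the highest value of any of them that is in the table was 4.39 rlog, far under peb-1. pha-4 and ceh-22 are each overlapped by 1 on the opposite strand, with mean rlog values of 1.74 and 0.08. tbx-2 and pha-1 have none.

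pha-1 (WBGene00004010, chromosome III, 11131775 to 11136688, plus strand) had rlog values of 10.39, 9.83, 9.97 and 10.07 in triple mutant libraries 1 to 4. They were 9.66, 9.83, 9.82 and 9.78 in the libraries labelled double mutant, and 9.88, 9.77, 9.75 and 9.57 in daf-2 libraries. The 3 genotypes overlapped, with triple mutant library 1 the highest. Against daf-2 the log2 fold change was 0.32 in the triple mutant (95% interval 0.01 to 0.63, limma adjusted p = 0.11) and 0.03 in the libraries labelled double mutant (95% interval -0.28 to 0.33, limma adjusted p = 0.911), which turned to -0.16 when libraries were centred on the well expressed genes. The toxin gene sup-35 lies in the same stretch of chromosome III (11115754 to 11119226, minus strand) and did rise. It averaged 10.16 ± 0.16 rlog in the triple mutant, 9.98 ± 0.12 in the libraries labelled double mutant and 9.25 ± 0.28 in daf-2 (SD, n = 4 each). Its log2 fold changes against daf-2 were 0.91 (limma adjusted p = 0.000552) and 0.74 (limma adjusted p = 0.00309) in the same order, but 2 annotated genes overlap it, 1 of them on the opposite strand.

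**Figure D2:**
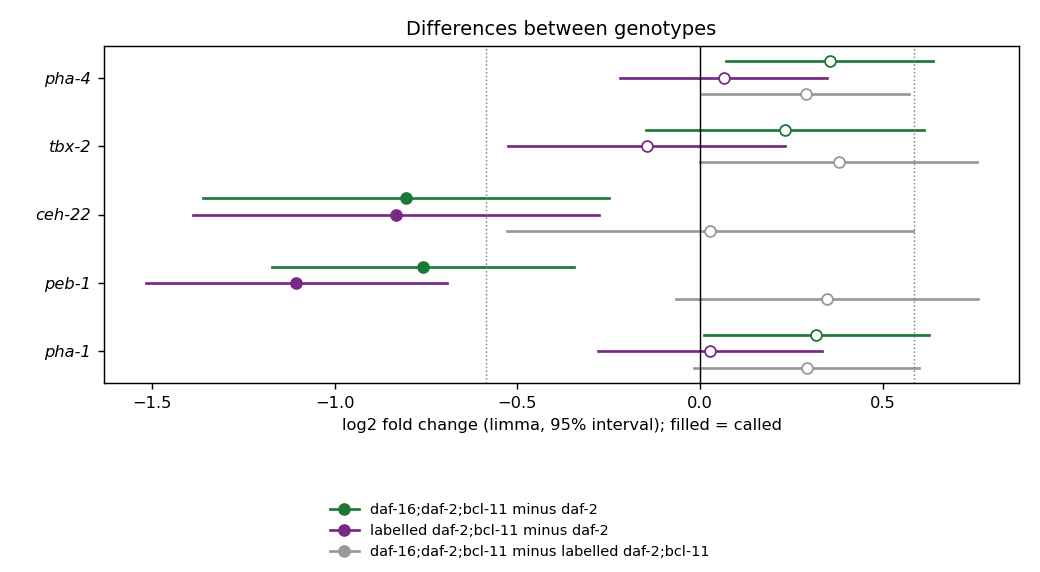
Log2 fold changes of the 5 regulators (x axis) with 95% limma intervals, for the triple mutant (daf-16;daf-2;bcl-11) minus daf-2, the libraries labelled double mutant (daf-2;bcl-11) minus daf-2, and the triple mutant minus the libraries labelled double mutant. Filled points were called, and dotted lines mark a 1.5-fold change. Against daf-2, ceh-22 and peb-1 lie at -0.76 or lower and are the only filled points.

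None of the 5 regulators was called between the triple mutant and the libraries labelled double mutant in limma. Of all genes 0.00796% were called higher and 0.00398% lower there. An unadjusted limma p below 0.05 was reached by 6.03% of all genes and, among the regulators, by pha-4 alone (log2 fold change 0.29, unadjusted limma p = 0.0458, adjusted p = 0.787, two-sided exact permutation p = 0.0571). tbx-2 was 0.38 higher (unadjusted limma p = 0.0501) and peb-1 0.35 higher (unadjusted limma p = 0.0934, 95% interval -0.07 to 0.76), while ceh-22 differed by 0.03 (95% interval -0.53 to 0.58). The intervals of ceh-22 and peb-1 still hold differences of about 1.5-fold. The exact test put none of the 5 past the threshold in this comparison, with p from 0.0571 to 0.943. Against daf-2, the same exact test gave 0.0286 for ceh-22 and for peb-1 in both bcl-11 genotypes, the smallest p that 4 libraries against 4 allow, and 0.107 after adjustment over the 15 tests. Libraries that did not overlap with daf-2 were common among all genes, at 29.8% for the triple mutant and 35.3% for the libraries labelled double mutant, and 4.32% of genes did not overlap between the bcl-11 genotypes, none of the 5 regulators among them.

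A constant shift of a whole library on the log2 scale cancels in the difference between 2 genes of that library. pha-4 exceeded ceh-22 by 3.53 ± 0.52 log2 units in the triple mutant, by 3.26 ± 0.20 in the libraries labelled double mutant and by 2.36 ± 0.20 in daf-2 (SD, n = 4 each). It exceeded peb-1 by 3.50 ± 0.25, 3.55 ± 0.28 and 2.38 ± 0.16 log2 units in the same order of genotypes. tbx-2 exceeded peb-1 by 2.86 ± 0.09, 2.82 ± 0.21 and 1.86 ± 0.20 log2 units. The gap from pha-4 was thus wider by 1.16 for ceh-22 and 1.11 for peb-1 in the triple mutant, and by 0.90 and 1.17 in the libraries labelled double mutant. For tbx-2, which also acts in pharyngeal muscle, it was wider by 0.12 and 0.21 in the same order, and the libraries overlapped with daf-2.

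The pairs are given as a description, since they are read by the genes already seen to be lower. Their split in large part repeats the results of the single genes. The two-sided exact permutation test was also run on each pair, and no p was below 0.0714 after Benjamini-Hochberg adjustment over all pairs and comparisons. In each bcl-11 genotype, the 6 pairs that set ceh-22 or peb-1 against 1 of the other 3 genes had libraries that did not overlap with daf-2, where 29.8% and 35.3% of all single genes did not overlap and the share among all gene pairs was not computed, with shifts of 0.99 to 1.16 log2 units in the triple mutant and 0.69 to 1.17 in the libraries labelled double mutant. The other 4 pairs overlapped with daf-2, with shifts of at most 0.12 and 0.27 in the same order. The mean distance between ceh-22 and peb-1 moved less, but it varied widely between libraries of the triple mutant. ceh-22 was above peb-1 by -0.03 ± 0.52 log2 units in the triple mutant, 0.29 ± 0.21 in the libraries labelled double mutant and 0.02 ± 0.14 in daf-2 (SD, n = 4 each). No pair separated the bcl-11 genotypes from each other.

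**Figure D3:**
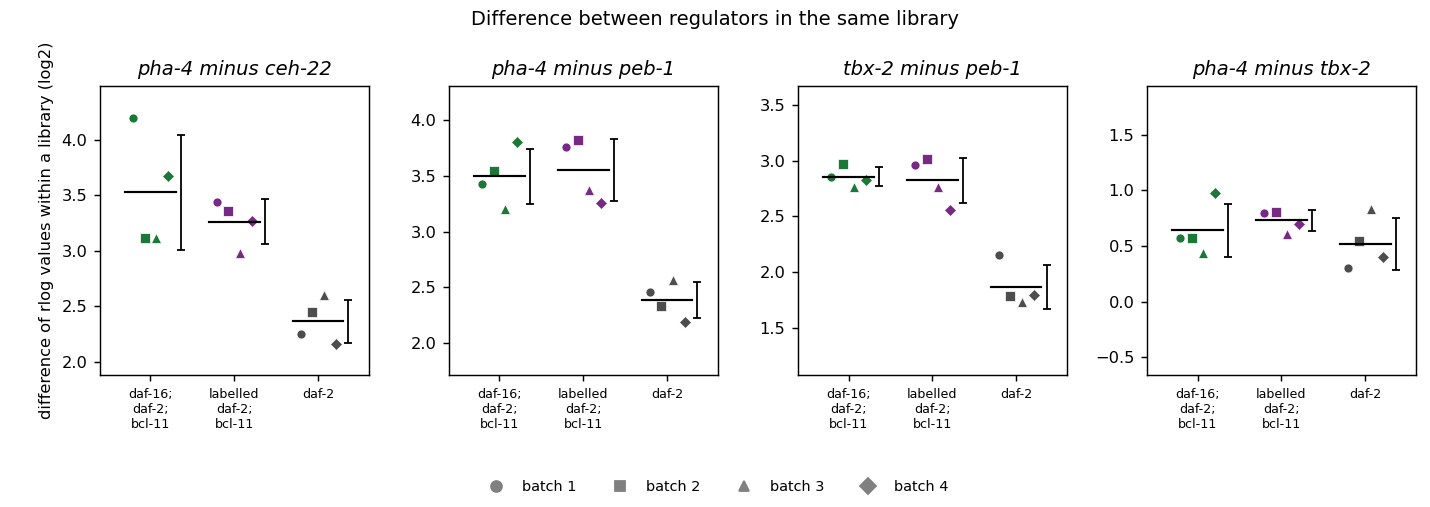
Difference between the rlog values of 2 regulators within the same library (y axis, log2 units) by genotype, with the batch as the marker shape, a bar for the mean and a bracket for ± 1 SD (n = 4). pha-4 minus ceh-22, pha-4 minus peb-1 and tbx-2 minus peb-1 are larger in every library of the bcl-11 genotypes than in any daf-2 library, whereas pha-4 minus tbx-2 overlaps.

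Levels of the 5 genes were compared per length, as rlog minus log2 of the longest annotated transcript in kilobases. In daf-2 eggs pha-4 was at 12.61 ± 0.24 and tbx-2 at 12.35 ± 0.24 on this scale (SD, n = 4), and their libraries overlapped. ceh-22 at 10.35 ± 0.14 and peb-1 at 10.22 ± 0.16 overlapped each other at a lower level, and pha-1 was lowest at 8.63 ± 0.13. The order of the means stayed the same in both bcl-11 genotypes, with pha-4 at 12.97 ± 0.20 and tbx-2 at 12.58 ± 0.40 in the triple mutant, and at 12.68 ± 0.11 and 12.20 ± 0.13, without overlap, in the libraries labelled double mutant. There ceh-22 was at 9.54 ± 0.68 in the triple mutant and 9.52 ± 0.24 in the libraries labelled double mutant. peb-1 was at 9.46 ± 0.39 and 9.11 ± 0.28, and pha-1 at 8.94 ± 0.24 and 8.65 ± 0.08, in that order of genotypes. The distance of ceh-22 and peb-1 from pha-1 was smaller in both bcl-11 genotypes, and in the triple mutant the ranges of ceh-22 and peb-1 overlapped with that of pha-1.

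Genes upstream of the regulators were called higher or not at all. The 9 listed ones specify the blastomeres that give rise to the pharynx, through Notch and Wnt signals and factors such as SKN-1 and the T-box proteins. In the triple mutant 2 of the 9 were called higher and none lower against daf-2, where 6.38% of all genes were called higher. The median log2 fold change of the 9 was 0.51, against -0.01 over all genes and 0.33 over the 7078 genes with a mean of at least 10 rlog. Those called were pop-1, a Wnt effector (0.71, limma adjusted p = 0.00756), and apx-1, a Notch ligand (0.62, limma adjusted p = 0.0182). apx-1 lost its call without triple mutant library 3 (0.58) or daf-2 library 3 (0.45). In the libraries labelled double mutant the median was 0.83, against -0.02 over all genes and 0.25 over those well expressed genes. There 6 of 9 were called higher and none lower, where 7% of all genes were called higher. That count of 6 was 0 without library 1 of those labelled double mutant, 3 without their library 2, 1 without daf-2 library 2 and 3 without daf-2 library 3. They included tbx-38 (2.04, limma adjusted p = 0.02) and tbx-37 (1.45, limma adjusted p = 0.0257), the T-box genes of the anterior pharynx precursors, med-2 (1.25, limma adjusted p = 0.0176) and glp-1, a Notch receptor (1.07, limma adjusted p = 0.0222). All 4 lost their call without library 1 of those labelled double mutant, though their log2 fold changes remained at 1.92, 1.34, 1.104 and 0.98 in the order named (limma adjusted p from 0.0599 to 0.0762). They also lost it without daf-2 library 2, at 1.602, 1.27, 1.07 and 0.96 (limma adjusted p from 0.0611 to 0.0796). pop-1 was called at 0.59 and lost without library 1 (0.51) or 4 (0.56) of those labelled double mutant or daf-2 library 4 (0.47). glp-1 also did without library 2 of those labelled double mutant or daf-2 library 1 or 3, tbx-37 without library 2 of those labelled double mutant or daf-2 library 3, and med-2 without daf-2 library 3, with adjusted p from 0.0527 to 0.071. tbx-37 and tbx-38, like med-1 and med-2, are pairs of close copies that may share reads. skn-1 was at 0.52 in the triple mutant and 0.25 in the libraries labelled double mutant and was not called.

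With the stage score as a covariate, 2 of the 9 were called higher in the triple mutant, as without it, and 1 in the libraries labelled double mutant in place of 6. tbx-38 reached 10.27 rlog in library 4 of the triple mutant, against 6.85 to 7.71 in the other 3 libraries of that genotype, from 9.29 to 9.83 in the libraries labelled double mutant and from 6.10 to 8.57 in daf-2. Without that library its log2 fold change against daf-2 was -0.06 in place of 0.67.

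Other transcription factors of the pharynx did not move one way. Of 7, 1 was called higher and 3 lower in the triple mutant (median -0.51), and 1 higher and 2 lower in the libraries labelled double mutant (median -0.52). Over all genes 6.38% and 7% were called higher, and 16.2% and 15% lower, in the same order. ceh-24, an NK-2 gene of pharyngeal muscle like ceh-22, fell by 1.18 in the triple mutant and by 1.06 in the libraries labelled double mutant on the log2 scale. hlh-6, needed for the pharyngeal glands, fell by 0.95 and 0.87. ceh-2 was at -0.82 in the triple mutant and at -0.58 in the libraries labelled double mutant, the second just under the fold change limit (limma adjusted p = 0.0168). The Eya gene eya-1 rose by 0.84 and 0.60 in the same order, while ceh-34, the homeobox gene whose protein pairs with EYA-1, was at -0.01 and -0.18 and was not called (limma adjusted p of 0.978 and 0.328). The call of eya-1 in the libraries labelled double mutant was lost without their library 2 (0.57) or daf-2 library 4 (0.46).

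Cofactors and genetic partners of the regulators were called higher or not at all. Of 6 cofactors of tbx-2 and pha-4, 5 were called higher in the triple mutant (median 0.65) and 3 in the libraries labelled double mutant (median 0.71). Of all genes 6.38% and 7% were called higher in the same order. The medians over the genes with a mean of at least 10 rlog, the cofactors among them, were 0.33 and 0.25. The histone variant gene htz-1, which acts with pha-4, rose by 0.98 and 0.90 in the same order. ubc-9 encodes the enzyme that attaches SUMO, the tag that TBX-2 needs, and smo-1 encodes SUMO itself. ubc-9 and smo-1 rose by 0.71 and 0.59 in the triple mutant and by 0.90 and 0.87 in the libraries labelled double mutant. The repressor gene unc-37 rose by 0.67 in the triple mutant. It was at 0.55 in the libraries labelled double mutant (limma adjusted p = 0.00229), just under the fold change limit. The count for the triple mutant was 1 of 6 with quantile normalization and 3 of 6 without its library 4, which took away ubc-9 (0.57) and smo-1 (0.49). Without daf-2 library 3 it was 3 of 6, and without daf-2 library 4 it was 2 of 6, with unc-37 (0.58) and smo-1 (0.54) among those lost. Of 6 genetic partners of pha-1, 2 were called higher in the triple mutant (median 0.48) and 3 in the libraries labelled double mutant (median 0.53). Besides sup-35 these were lin-35, the Rb gene (0.81 and 0.64), and in the libraries labelled double mutant the ubiquitin-conjugating enzyme gene ubc-18 (0.80). In the triple mutant ubc-18 was at 0.57 (limma adjusted p = 0.00424), just under the fold change limit, and was called with median centring (1.11). lin-35 lost its call there with quantile normalization (0.51). In the libraries labelled double mutant lin-35 lost it with quantile normalization (0.44), the stage score as covariate (0.40) and centring on well expressed genes (0.46). sup-35 lost its call there with that centring (0.55), and ubc-18 with the stage score (0.55).

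Genes of the differentiated organ were called lower or not at all. Among all genes 16.2% were called lower in the triple mutant and 15% in the libraries labelled double mutant. All 5 genes of pharyngeal muscle fell in both bcl-11 genotypes, with a median log2 fold change of -1.56 in the triple mutant and -1.07 in the libraries labelled double mutant. myo-2, the pharyngeal myosin gene bound by CEH-22 and PEB-1, had rlog values of 8.79, 8.82, 9.71 and 9.51 in triple mutant libraries 1 to 4, 9.99, 9.47, 9.74 and 9.78 in those labelled double mutant, and 11.21, 10.87, 10.52 and 10.46 in daf-2 libraries. Every library of both bcl-11 genotypes was below every daf-2 library. Its log2 fold change was -1.56 (SE 0.23, limma adjusted p = 0.000173) in the triple mutant and -1.02 (SE 0.23, limma adjusted p = 0.00422) in the libraries labelled double mutant. The myosin gene myo-1 was at -1.76 and -1.25, the troponin C gene tnc-2 at -1.56 and -1.15, and the innexin gene eat-5 at -1.18 and -1.07 in the same order. All 5 of these genes were called in each of the 23 alternatives for the triple mutant, and at least 4 in those for the libraries labelled double mutant.

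A smaller share of the gland and cuticle genes of the pharynx was called than of the pharyngeal muscle genes. The shares of all genes called lower were again 16.2% in the triple mutant and 15% in the libraries labelled double mutant. Of 7 gland genes, 4 were called lower in the triple mutant (median -1.01) and 1 in the libraries labelled double mutant (median -0.56), among them phat-5 (-1.79) and phat-2 (-1.24) in the triple mutant and phat-2 (-0.72) in the libraries labelled double mutant. The gland count in the libraries labelled double mutant was 3 without daf-2 library 1, with phat-5 (-1.18) and phat-1 (-0.66) also called, and 2 without daf-2 library 3 or triple mutant library 2 or 4. It was 4 with array weights, 3 with only the 2 genotypes compared and 6 with centring on well expressed genes. Of 10 cuticle genes, 6 were called lower in the triple mutant (median -1.24) and 4 in the libraries labelled double mutant (median -0.78). The largest of these were abu-10 (-2.44) and abu-13 (-2.17) in the triple mutant and abu-13 (-1.66) and abu-10 (-1.23) in the libraries labelled double mutant, the last of which lost its call with the replicate block (adjusted p = 0.0575) and without any of 6 single libraries (-1.301 to -1.004, limma adjusted p up to 0.138). pqn-75 was at 0.52 and 0.25 in the same order and was not called. abu and phat genes have close copies that may share reads, and phat-3, abu-6, abu-7 and abu-15 had means of at most 1.65 rlog, too low to judge a change. These 4 are still counted among the 7 gland and 10 cuticle genes and enter their medians, which makes the shares called smaller. The PHA-4 target genes let-522 and D2096.6 were both called lower, at -0.67 and -0.81 in the triple mutant and -0.74 and -0.66 in the libraries labelled double mutant. Leaving out any of 5 single libraries ended the call of D2096.6 in the libraries labelled double mutant (-0.68 to -0.57), and leaving out triple mutant library 4 or daf-2 library 2 ended that of let-522 in the triple mutant (-0.56 each). None of the 52 genes measured in these 8 lists was called between the bcl-11 genotypes in limma, and 13 of them had an unadjusted p below 0.05 there, against 6.03% of all genes. Without triple mutant library 4, 4 of the 9 specification genes were called lower in the triple mutant.

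**Figure D4:**
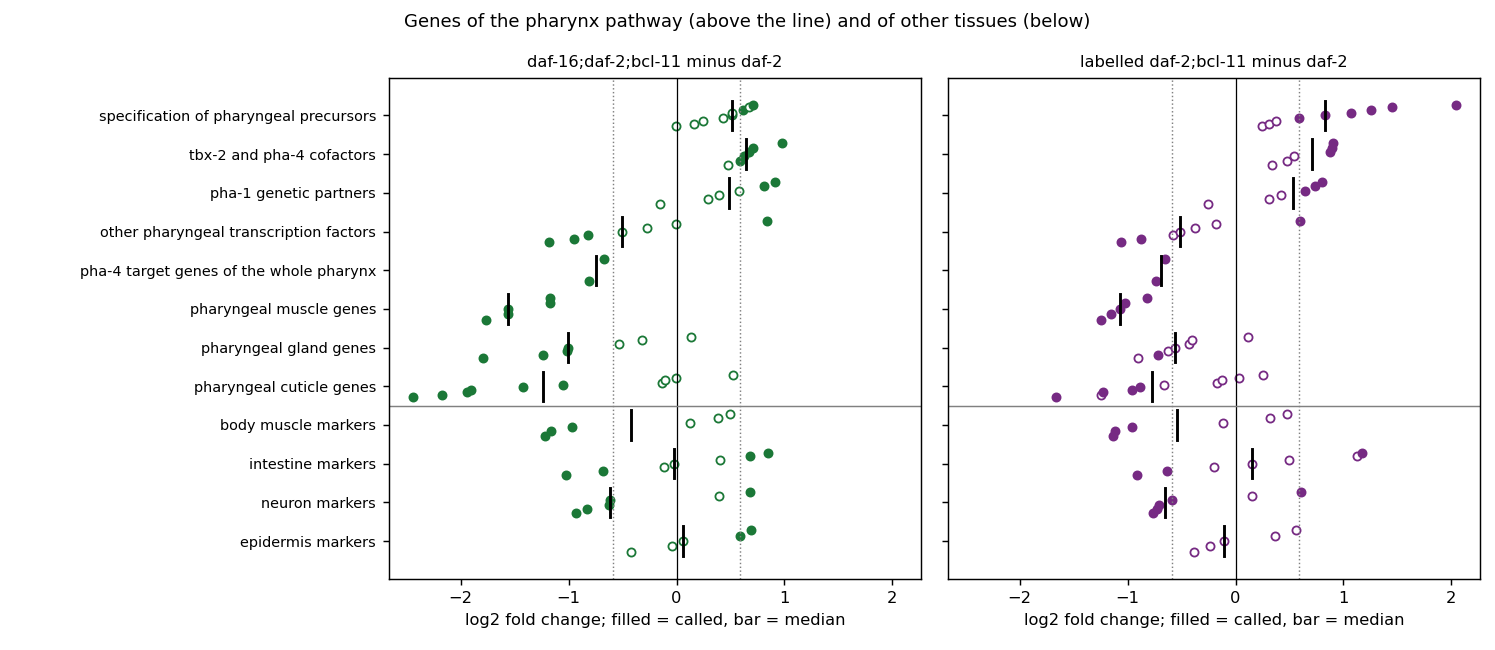
Log2 fold changes against daf-2 (x axis) of genes around the regulators, in 8 lists ordered from specification to differentiated organ, and of markers of 4 other tissues, for the triple mutant and for the libraries labelled double mutant. Each point is a gene, filled points were called, bars are list medians, and dotted lines mark a 1.5-fold change. All 5 pharyngeal muscle genes lie at -0.82 or lower in both panels, and the medians of the specification genes lie at 0.51 and 0.83.

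Lower values were not limited to the pharynx. Over all genes 16.2% were called lower and 6.38% higher in the triple mutant, and 15% and 7% in the libraries labelled double mutant. Of 6 body muscle markers the structural genes myo-3, unc-54 and unc-15 fell in both bcl-11 genotypes, at -1.22, -0.97 and -1.17 in the triple mutant and -1.14, -0.96 and -1.12 in the libraries labelled double mutant. The early factors hlh-1, unc-120 and hnd-1 were not called, and the summed level of the list was 15.70 to 16.08 in the triple mutant, 15.78 to 15.89 in the libraries labelled double mutant and 16.25 to 16.59 in daf-2 (log2). Of 6 neuron markers 4 were called lower and 1 higher in each bcl-11 genotype, and their summed level was 13.81 to 13.94, 13.69 to 13.77 and 13.80 to 13.94 in the triple mutant, the libraries labelled double mutant and daf-2. Of 7 intestine markers 2 were called lower in each bcl-11 genotype, while 2 were called higher in the triple mutant and 1 in the libraries labelled double mutant, with summed levels of 14.72 to 14.87, 14.76 to 14.78 and 14.80 to 15.11 in the same order. Of 5 epidermis markers 2 were called higher in the triple mutant and 0 in the libraries labelled double mutant, where 3 had an unadjusted limma p below 0.05, and the summed levels were 15.48 to 16.001, 15.59 to 15.69 and 15.45 to 15.87. Without single libraries the lower counts ran from 2 to 4 for neuron markers and from 1 to 2 for intestine markers in both genotypes, and the higher count of epidermis markers from 1 to 2 in the triple mutant and from 0 to 1 in the libraries labelled double mutant. No marker in these 4 lists was at 0. Their part in the results for ceh-22 and peb-1 was not tested.

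Lists of embryonic age were also counted, and the same shares of all genes apply. Of 12 maternal genes 2 were called higher in the triple mutant and 11 in the libraries labelled double mutant, and of 11 early zygotic genes 1 and 7, but these counts moved with single libraries. In the triple mutant the maternal count ran from 0, without its library 4 or daf-2 library 1 or 2, to 8, without daf-2 library 4. The early zygotic count there was 0 without its library 1 or 4 or daf-2 library 2 or 4. The maternal count in the libraries labelled double mutant was 7 without their library 1 or daf-2 library 2. The early zygotic count there was 1 without either of these and 11 without triple mutant library 4, and 3 or 4 without daf-2 library 3 or any of their other 3 libraries. With the replicate block the maternal and early zygotic counts were 5 and 2 in the triple mutant, and the early zygotic count was 11 in the libraries labelled double mutant. The summed level of the maternal genes was 15.08 to 16.95 in the triple mutant, 16.20 to 16.84 in the libraries labelled double mutant and 14.45 to 15.91 in daf-2, and that of the late embryo genes was 19.12 to 20.09, 19.45 to 19.70 and 19.90 to 20.22. Of 11 late embryo genes 4 were called lower in each bcl-11 genotype, the muscle genes lev-11, pat-10 and mlc-2 and the collagen gene sqt-3. dpy-17, hch-1 and unc-27 were below 0 in both and not called. noah-1, noah-2, fbn-1 and let-653 were not called, at 0.16 to 0.51 in the triple mutant and -0.06 to 0.21 in the libraries labelled double mutant. The late part of the stage score thus rests in part on muscle genes. Of 4 germ line markers 0 were called in the triple mutant (limma, also 0 at an unadjusted p below 0.05) and 3 were higher in the libraries labelled double mutant, or 1 without their library 1 or daf-2 library 1 or 2. Of 8 adult yolk and sperm genes 0 were called in either genotype (limma, 1 at an unadjusted p below 0.05 in each). With the stage score as a covariate the log2 fold change of peb-1 in the libraries labelled double mutant was -0.60 (limma adjusted p = 0.0144), still called, and that of ceh-22 was -0.32 (limma adjusted p = 0.467). In the triple mutant that fit gave -0.49 for peb-1 (limma adjusted p = 0.00828), under the 1.5-fold limit, and -0.53 for ceh-22 (limma adjusted p = 0.0919). Since the score is built from the same libraries and differs between genotypes, age of the eggs and genotype cannot be fully told apart.

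Scaling set how these changes read. The median rlog of all genes was 5.77 to 5.95 in the triple mutant, 5.92 to 6.01 in the libraries labelled double mutant and 6.36 to 6.50 in daf-2, while the median of the 7078 genes with a mean of at least 10 ran the other way (12.05 to 12.18, 12.07 to 12.15 and 11.88 to 11.94). Centring each library on its median raised every log2 fold change by 0.54 in the triple mutant and by 0.43 in the libraries labelled double mutant. On that scale ceh-22 and peb-1 were at -0.27 and -0.22 in the triple mutant and were not called, and pha-4 (0.89), tbx-2 (0.77) and pha-1 (0.86) were called higher. In the libraries labelled double mutant peb-1 (-0.68) remained called and ceh-22 (-0.40) did not. Of all genes called, those called higher then made up 82.3% in the triple mutant and 78.3% in the libraries labelled double mutant, in place of 28.3% and 31.9%. Quantile normalization kept both calls in both genotypes, with 46.3% and 45.9% of called genes higher. Centring on the well expressed genes lowered every log2 fold change by 0.20 and 0.19, which left 6.83% and 14.9% of called genes higher in the same order and kept both calls. The lists around the regulators moved with the scale too. With median centring 6 and 9 of the 9 specification genes were called higher in the triple mutant and in the libraries labelled double mutant, and 5 and 4 of the 5 pharyngeal muscle genes were still called lower. In the same order 2 and 0 of 7 gland genes, 4 and 1 of 10 cuticle genes and neither PHA-4 target gene were then called lower. With centring on well expressed genes 0 and 5 specification genes were called higher. The distance of ceh-22 and peb-1 from the other 3 regulators is the same under any such centring.

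**Figure D5:**
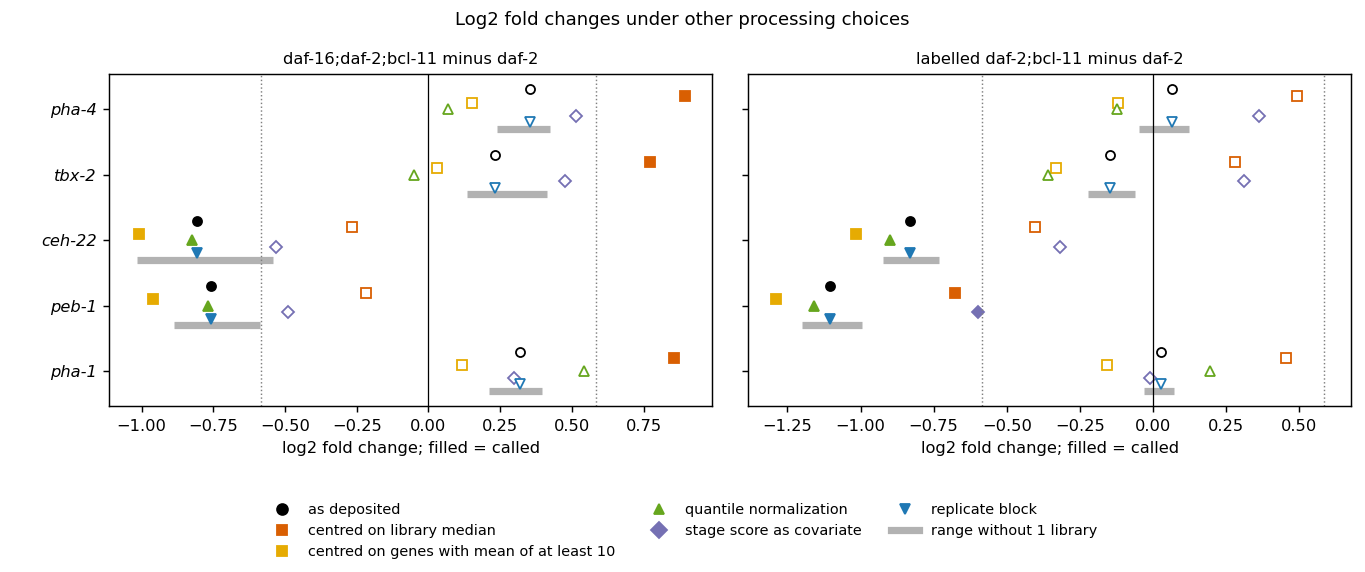
Log2 fold changes of the 5 regulators against daf-2 (x axis) under the deposited scale and 5 other choices, with a grey bar for the range over fits without 1 library, for the triple mutant and for the libraries labelled double mutant. Filled symbols were called. ceh-22 and peb-1 stay below 0 under every choice shown, whereas pha-4 and pha-1 in the libraries labelled double mutant and tbx-2 in both panels lie on either side of 0 depending on the scaling or covariate.

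Profiles over the 12 libraries were compared by the root mean square difference of rlog values after each gene was centred on its mean. For each regulator, the genes with the most similar profile were sought only among those with a symbol. For pha-4 they were ebax-1 (0.05) and the autophagy gene atg-2 (0.07), and for tbx-2 apg-1 (0.07) and the spectrin gene spc-1 (0.09). For pha-1 they were skat-1 (0.07) and the mitochondrial ribosomal protein gene mrps-15 (0.08). ceh-22 and peb-1 had no neighbours as close, with K10D3.4 (0.12) and the type IV collagen gene emb-9 (0.14) nearest to ceh-22, and linc-22 (0.13) and C54E10.6 (0.15) nearest to peb-1. The difference was not scaled to the spread of each gene, so genes that vary more over the libraries tend to lie farther from others.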

How the data were processed

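RNA from eggs of 3 genotypes, with 4 libraries each, was measured by Smart-seq2 from 5 ng of total RNA. Per the study's methods, the authors demultiplexed reads with bcl2fastq2 2.20 and estimated expression with Kallisto against Ensembl transcripts, and they deposited rlog (log2) values per gene. The step from transcripts to genes and the filter on low counts are not given in the sources used here. Values were used as deposited, and the depth of the libraries is unknown. No library pair held identical values. All 25122 identifiers were in the Ensembl 115 annotation of WBcel235, which gave the coordinates, and 23471 had a symbol. Of 123 listed genes 122 were matched, and vet-4 was not.

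The fit used limma 3.58.1 in R 4.3.3 (eBayes with a trend, 1 model with all 12 libraries and no block, p-values adjusted over all genes by the Benjamini-Hochberg method). Exact permutation tests (two-sided, 70 arrangements) were run on single values in Python 3.11.15. The fit was tested on simulated data. Replicate numbers pair the libraries, since the labels give them as the batch. Deviations from the genotype mean correlated over genes between libraries of the same number by 0.04 to 0.38 for the triple mutant with daf-2 and by -0.11 to 0.18 for the libraries labelled double mutant with daf-2.

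Named genes are the 5 regulators, bcl-11, daf-2 and daf-16, up to 4 called genes of largest change from each list, 9 genes set by name (sup-35, ceh-34, eya-1, hlh-6, myo-2, tbx-37, tbx-38, glp-1 and skn-1) and the 2 nearest profiles of each regulator. Other genes were named after their values were seen. The regulators and lists were chosen with earlier results of these data known. bcl-11 averaged 9.10 ± 0.72 rlog in the triple mutant, 9.28 ± 0.18 in the libraries labelled double mutant and 10.15 ± 0.37 in daf-2, and daf-2 averaged 10.05 ± 0.14, 9.96 ± 0.09 and 10.01 ± 0.24 (SD, n = 4). The alternatives were eBayes without a trend, fits of only the 2 genotypes compared, a minimum mean of log2(10), median centring, quantile normalization, a replicate block, fold change limits of 0 and 1 on the log2 scale, array weights, the stage score as a covariate and each library left out. Centring on the genes with a mean of at least 10 was chosen after seeing the data. Sequences were not used here.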

Additional observations from a re-analysis of the deposited data

Results flagged for a closer look

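Among 17 genes in 3 genotypes, a library was checked for lying far from the other 3 of its genotype, with the gap to its nearest neighbour divided by the whole range. Of 51 groups 3 passed the 95% limit for 4 samples, where chance alone gives about 2.55 (1 in 20). None was a regulator. ceh-34 was lowest in library 1 of those labelled double mutant (13.22 rlog against a mean of 13.43 in the other 3, ratio 0.836). hlh-6 was lowest in daf-2 library 2 (9.78 against 9.95, ratio 0.892). skn-1 was lowest in triple mutant library 1 (12.10 against 12.47, ratio 0.882).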

How the results depend on the processing

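Of the 5 regulators, 2 were called against daf-2 in each bcl-11 genotype, and the 23 alternatives changed these counts as follows, with the cause not tested beyond what each choice itself does. For the triple mutant the count was 1 with only the 2 genotypes compared, 1 with array weights, 0 with a fold change limit of 1 on the log2 scale, 0 with the stage score as covariate, 3 different genes with median centring, and 1 to 2 without single libraries. For the libraries labelled double mutant it was 1 with median centring, with the limit of 1 and with the stage score, and 1 to 2 without single libraries. Between the bcl-11 genotypes it was 0 throughout. With the replicate block the counts were 2, 2 and 0, and the block changed no call of a regulator. Among the other genes named from the pharynx lists it ended only that of abu-10 in the libraries labelled double mutant (limma adjusted p = 0.0575). Counts over all genes were 11465 and 8574 with median centring and 2629 and 2511 with the limit of 1, in place of 5661 and 5517, for the triple mutant and the libraries labelled double mutant. Between the bcl-11 genotypes 357 genes in place of 3 were called without triple mutant library 4.

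Among the regulators and the genes named from the pharynx lists, directions turned only for log2 fold changes that were not called. For pha-4 in the libraries labelled double mutant the value was -0.12 with quantile normalization and with centring on well expressed genes, and -0.049 to 0.12 without single libraries, lowest without daf-2 library 4. For pha-1 there it was -0.011 with the stage score, -0.16 with centring on well expressed genes and -0.031 to 0.073 without single libraries, lowest without daf-2 library 4. tbx-2 turned to 0.28 with median centring and 0.31 with the stage score there, and to -0.052 with quantile normalization in the triple mutant. ceh-22 between the bcl-11 genotypes turned to -0.22 with the stage score, and to -0.19, -0.14 and -0.07 without triple mutant library 2 or 3 or library 1 of those labelled double mutant, in a range up to 0.29 without single libraries. In the triple mutant the stage score turned tbx-38 to -0.39, tbx-37 to -0.23, med-2 to -0.43 and glp-1 to -0.086. Without single libraries tbx-38 ranged from -0.056 to 1.09, tbx-37 from -0.028 to 0.95 and med-2 from -0.23 to 0.42, each lowest without triple mutant library 4. med-2 was also -0.038 with centring on well expressed genes and -0.02 without daf-2 library 2. ceh-34 was 0.53 with median centring, 0.15 with the stage score, and -0.087 to 0.074 without single libraries, above 0 without triple mutant library 1 or 4 or daf-2 library 2 or 3. In the libraries labelled double mutant it was 0.25 with median centring and 0.12 with the stage score.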
